A study of Homo sapiens with 54 samples.

Results

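HOX genes encode homeodomain transcription factors that give cells their position along the body axis. In mammals they lie in 4 clusters, HOXA, HOXB, HOXC and HOXD, each ordered so that genes of low number act towards the head and genes of high number towards the tail and the ends of the limbs. Adult cells tend to keep the HOX pattern of their origin, held by Polycomb repression of the silent genes and Trithorax activity at the active ones, and cancer cells often carry altered patterns. The genes described here are 38 HOX genes of these clusters, of 19974 protein-coding genes in all: 10 of HOXA, 10 of HOXB, 9 of HOXC and 9 of HOXD. They were chosen by name and not by a cut on any measured value, although earlier results of these data were known.

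Open chromatin was mapped by ATAC-seq, in which a transposase cuts and tags accessible DNA. The cells were PC3, a prostate cancer line from a bone metastasis, and MDA-MB-231, a breast cancer line of the triple-negative kind. In each line there were untreated control cells, survivors of cisplatin collected 1 day after the drug was taken away (1DPTR, day 1), and survivors collected 10 days after it (10DPTR, day 10). Cisplatin binds DNA and links its bases. The series title calls the survivors polyploid, and no dose is given with the samples. There were 6 groups with 3 biological replicates apiece, and each of those was divided into 3 for tagmentation, hence 54 samples. What was deposited for each biological replicate is 1 peak list, so the data are 18 lists (n = 3 in a group). Whether the biological replicates were separate cultures is not stated, so p-values measure the spread between these lists only. The lists hold no reads, so depth is unknown.

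The value used throughout is covered length: how many kb of a gene body and 10 kb on each side lie inside peaks, scaled so that all lists have the same total covered length. It says how much of a locus was called open, not how strongly, and says nothing of expression. Percents given for a gene's window are this scaled length over the window length. They are not the share of its bases under peaks. In a bulk sample, fewer cells with an open site and less opening per cell cannot be told apart. The lists held 82392 to 165535 peaks over 54.4 to 82.3 Mb. Line markers were checked against the labels. CDKN2A and CDKN2B, at a locus known to be deleted in MDA-MB-231, had no peak in its 9 lists and 1.21 to 3.23 kb and 2.13 to 4.49 kb in the 9 PC3 lists. The mesenchymal gene VIM and the epithelial gene KRT8 had peaks in every list. Of the blood cell markers given here, PTPRC was at or near 0, with at most 0.594 kb, while SPI1 and CD3E had 0.835 to 5.50 kb.

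Most HOX windows held a peak in both lines. Of the 38 genes, 29 had a peak somewhere in the window in every list. The others were HOXA2, HOXC11, HOXC12, HOXC13, HOXD1, HOXD3, HOXD4, HOXD9 and HOXD10. The same share over all genes was not taken. A peak in the window need not lie at the promoter. In MDA-MB-231, the promoter windows (defined below) of HOXA4, HOXA6, HOXA9 and HOXA11 had no covered base in any list. Those of HOXA2, HOXA7, HOXB1, HOXD8 and HOXD13, among others, had none in any list of either line. Differences given for these genes rest on peaks elsewhere around them. HOXD10 reached the 500 bp needed for a test in too few lists, so 37 genes were tested. The windows of 37 of the 38 genes overlap that of a neighbour, so neighbouring values rest partly on the same peaks and are not independent. HOXC5 and HOXC6 have the same covered length in every list, as do HOXD3 and HOXD4. In each MDA-MB-231 list HOXA4, HOXA5 and HOXA6 also have the same covered length.

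**Figure D1:**
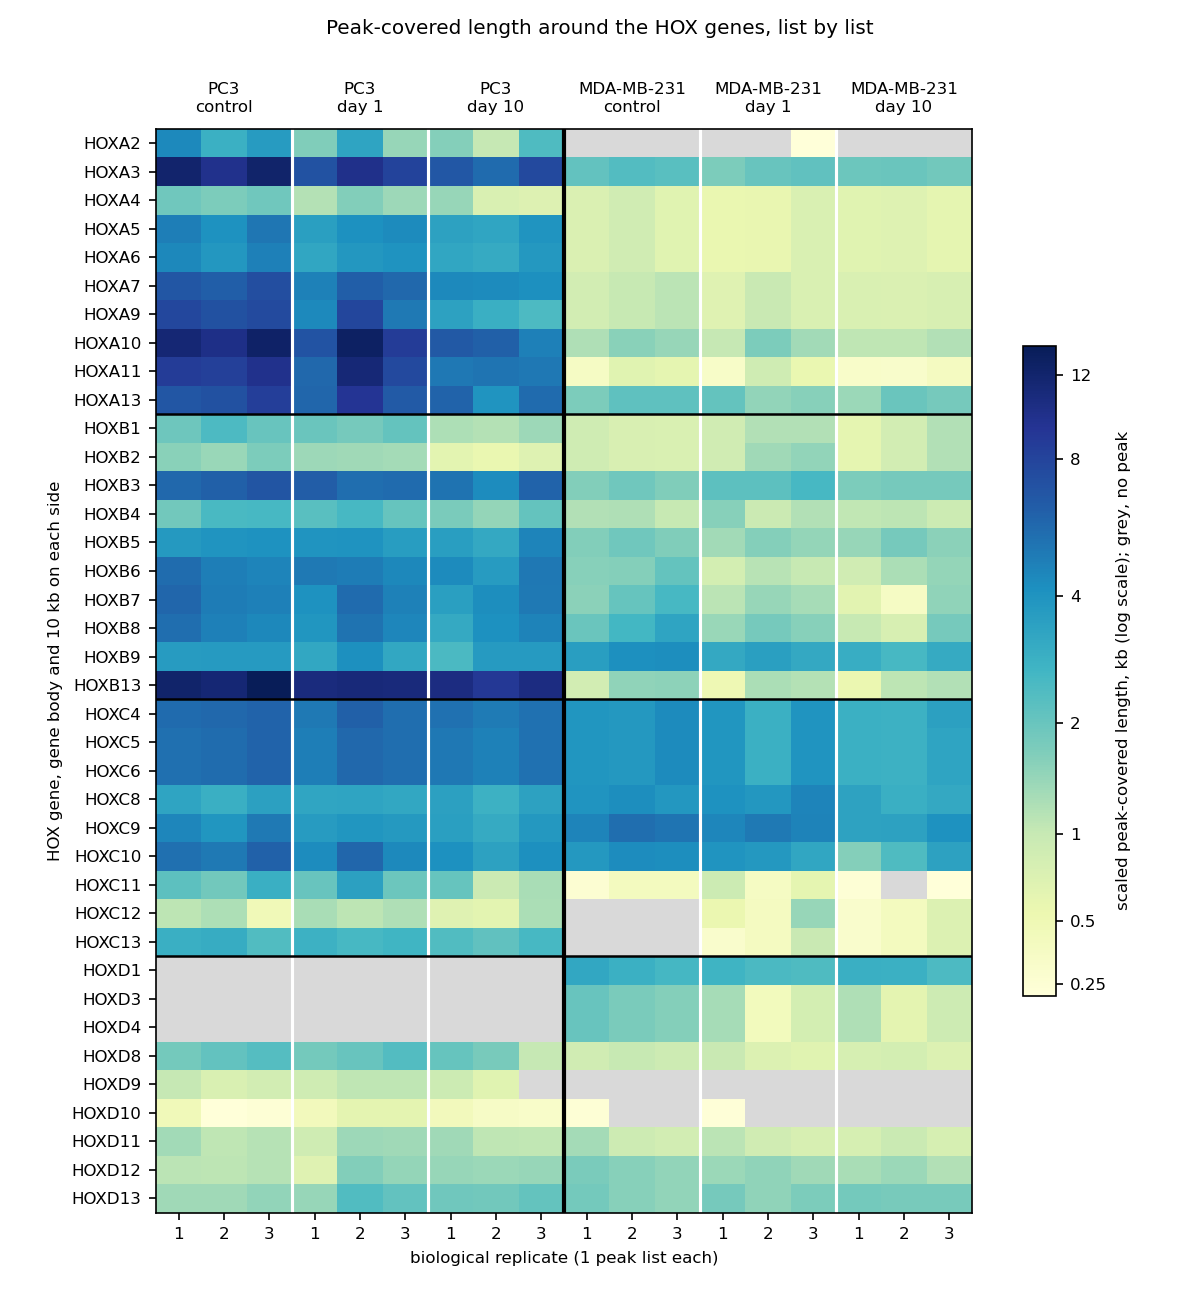
Scaled covered length in kb (colour, on a log scale, grey for no peak) of the 38 HOX genes (rows, grouped by cluster) in each of the 18 peak lists (columns, grouped by line and time). HOXB13 and the HOXA rows other than HOXA4 are higher in every PC3 list than in any MDA-MB-231 list. For HOXA4 the lines overlap. HOXD1, HOXD3 and HOXD4 have values in MDA-MB-231 alone.

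Set side by side without treatment, PC3 cells had the more open HOXA, HOXB and HOXC clusters and MDA-MB-231 cells the more open HOXD cluster. Covered length of the whole HOXA cluster (chr7:27100354-27200091, GRCh38.p14, with 10 kb on each side) was 27.8, 24.7 and 29.6 kb in PC3 control lists, against 4.19, 5.18 and 4.99 kb in MDA-MB-231 control lists. The PC3 lists had several times the covered length, with no overlap. For HOXB (chr17:48528526-48728750) the values were 30.7, 30.1 and 32.5 kb in PC3 control lists, against 10.6, 12.0 and 12.3 kb in MDA-MB-231 control lists. For HOXC (chr12:53938831-54056030) they were 15.3, 15.0 and 16.1 kb in PC3 control lists, against 9.86, 10.8 and 10.9 kb in MDA-MB-231 control lists. HOXD (chr2:176087487-176190907) ran the other way, with 3.65, 3.66 and 4.04 kb in PC3 control lists, against 8.12, 7.23 and 6.58 kb in MDA-MB-231 control lists.

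Over all 3 states, the log2 difference of PC3 over MDA-MB-231 was 2.30 for HOXA, 1.42 for HOXB, 0.57 for HOXC and -0.66 for HOXD. Each had a two-sided exact permutation p of 0.00025, the smallest its 8000 relabellings can give, and an adjusted p of 0.00075 over 12 cluster tests. For HOXA the difference was 2.52 in control, 2.39 at day 1 and 1.98 at day 10. For HOXB it stayed between 1.42 and 1.43. Counted as the number of peaks, scaled to equal totals, the HOXD difference was 0.03 (adjusted exact permutation p = 0.925).

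**Figure D2:**
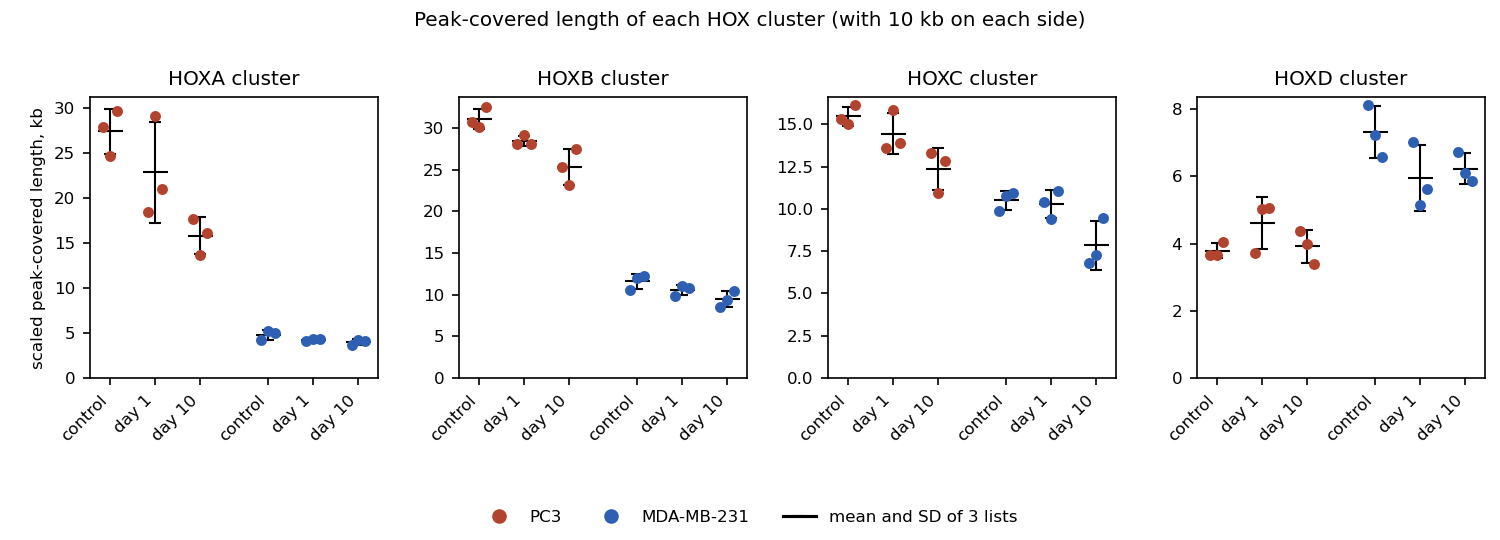
Scaled covered length in kb (y axis, from 0) of each HOX cluster with 10 kb on each side, for PC3 and MDA-MB-231 at control, day 1 and day 10. Points are the 3 lists of a group, with lines at the mean and SD. HOXA in PC3 averages 27.4 kb in control, 22.8 kb at day 1 and 15.8 kb at day 10, and in MDA-MB-231 every list lies between 3.65 and 5.18 kb.

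Gene by gene, 27 of the 37 tested HOX genes had more covered length in untreated PC3 than in untreated MDA-MB-231 cells (limma, adjusted p under 0.05) and 5 had less, where 21.0% of all 16816 tested genes were higher and 44.3% lower in PC3. The median log2 difference was 0.98 over the HOX genes and -0.20 over all genes. With median-of-ratios scaling 5096 genes were higher and 4921 lower in PC3, in place of 3527 and 7443, and the HOX genes were 29 higher and 3 lower. By cluster, the genes higher in PC3 were 10 of 10 in HOXA, 9 of 10 in HOXB, 6 of 9 in HOXC and 2 of 8 tested in HOXD. At day 1 the counts were 25 higher and 5 lower (20.4% and 42.5% of all genes), and at day 10 they were 25 and 3 (19.2% and 48.8%). In survivors the split of all genes also moved with the scaling. The 3434 higher and 7155 lower of day 1 became 4020 and 4735 without scaling and 5119 and 4846 with median-of-ratios scaling, while the HOX genes became 27 and 3, and 29 and 3. The 3221 higher and 8200 lower of day 10 became 4623 and 4618 without scaling and 5493 and 5104 with median-of-ratios scaling, while the HOX genes became 27 and 3, and 33 and 3. Across all 9 lists of each line, the lowest PC3 list lay above the highest MDA-MB-231 list for 20 genes, 9 of them in HOXA, where this held for 10.2% of all tested genes. The highest PC3 list lay below the lowest MDA-MB-231 list for 3 genes, all of HOXD, where this held for 24.7% of all tested genes.

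HOXA11, a gene of limb and uterus development, had one of the widest gaps. It had 8.59, 8.32 and 9.71 kb in PC3 control lists, against 0.356, 0.667 and 0.608 kb in MDA-MB-231 control lists (log2 difference 3.18, SE 0.19, adjusted p = 3.05e-10). Per length, its window was the most open of HOXA in PC3, at 20.9 to 46.7% with a median of 31.7% over the 9 lists. HOXA10, which acts in the uterus and in blood progenitors, had 11.4, 10.1 and 12.4 kb in PC3 control lists, against 1.20, 1.57 and 1.43 kb in MDA-MB-231 control lists (log2 difference 2.64, SE 0.18, adjusted p = 1.02e-09). HOXA9, a gene that drives many acute leukaemias together with MEIS1, had 7.73, 7.06 and 7.51 kb in PC3 control lists, against 0.843, 0.995 and 1.11 kb in MDA-MB-231 control lists (log2 difference 2.42, SE 0.16). None of these groups overlapped.

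At the head end of HOXA, HOXA2, which patterns the hindbrain, had 4.37, 2.86 and 3.67 kb in PC3 control lists and was listed at 0 in all 3 MDA-MB-231 control lists. In MDA-MB-231 it had a peak in a single list, day 1 replicate 3, at 0.211 kb. HOXA3, needed for the thymus and parathyroid, had 11.9, 9.70 and 12.2 kb in PC3 control lists, against 2.10, 2.36 and 2.24 kb in MDA-MB-231 control lists (log2 difference 2.10, SE 0.12). At the other end, HOXA13, which shapes the digits and the urogenital tract, was the most open HOXA window in MDA-MB-231, at 5.38 to 8.38% with a median of 7.05%. It had 6.67, 7.08 and 8.45 kb in PC3 control lists, against 1.73, 2.16 and 2.14 kb in MDA-MB-231 control lists. In PC3 the least open HOXA window was that of HOXA4, at 3.17 to 8.51% with a median of 6.43%.

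In HOXB the gap was widest at HOXB13, a factor of the prostate epithelium that binds together with the androgen receptor. HOXB13 had 12.2, 11.5 and 13.8 kb in PC3 control lists, against 0.838, 1.50 and 1.53 kb in MDA-MB-231 control lists (log2 difference 2.88, SE 0.20, adjusted p = 1.77e-09). At day 10 it still had 10.5, 8.91 and 10.5 kb in PC3 lists, against 0.548, 1.08 and 1.17 kb in MDA-MB-231 lists. By scaled length its window was the most open HOX window in PC3, at 37.1 to 57.6% with a median of 45.4%. Unscaled, peaks covered 10301 to 12879 of its 23988 bp in the PC3 lists. HOXB9 was the most open HOXB window in MDA-MB-231, at 10.1 to 16.9%, and the one HOXB gene that did not differ by test. It had 3.64, 3.68 and 3.69 kb in PC3 control lists, against 3.54, 4.15 and 4.25 kb in MDA-MB-231 control lists, which overlap.

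Towards the head end of HOXB, HOXB3, HOXB4 and HOXB5, genes of the hindbrain and neck levels of the embryo, were all higher in PC3. HOXB3 had 5.77, 6.16 and 6.79 kb in PC3 control lists, against 1.65, 1.89 and 1.68 kb in MDA-MB-231 control lists (log2 difference 1.59, SE 0.10, adjusted p = 6.37e-10). Per length it was the least open HOXB window in MDA-MB-231, at 2.68 to 4.18% with a median of 2.96%. HOXB5 had 3.13 to 4.56 kb over the 9 PC3 lists, against 1.32 to 1.89 kb over the 9 MDA-MB-231 lists, but with 2 kb on each side of the gene the direction was reversed, with -0.36 in control cells, and -0.33 and -0.42 in survivors of day 1 and day 10. HOXB4 had 1.47 to 2.56 kb over the 9 PC3 lists, against 0.920 to 1.60 kb over the 9 MDA-MB-231 lists, which overlap.

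HOXC was the cluster with the most similar covered length in control lists, with a log2 difference of PC3 over MDA-MB-231 of 0.56. At day 1 HOXD differed less, at -0.37 against 0.49 for HOXC. HOXC8 and HOXC9, which act in the thoracic region of the embryo, had 2.91 to 4.97 kb in PC3 control lists, against 3.83 to 5.50 kb in MDA-MB-231 control lists. HOXC8 was lower in PC3 (log2 difference -0.28, SE 0.09, adjusted p = 0.0121), although with 2 kb instead of 10 kb on each side of the gene the direction was reversed, at 1.48. The HOXC9 window was the most open of HOXC in MDA-MB-231, at 14.6 to 23.7% with a median of 19.8%. HOXC13, which is needed for hair and nail growth, stood apart. It had 2.92, 3.03 and 2.39 kb in PC3 control lists and was listed at 0 in all 3 MDA-MB-231 control lists, as was HOXC12 beside it. HOXC11, on the other side of HOXC12, had 2.19, 1.87 and 2.90 kb in PC3 control lists, against 0.257, 0.396 and 0.401 kb in MDA-MB-231 control lists (log2 difference 1.72, SE 0.24, adjusted p = 6.26e-06).

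HOXD was split by position. HOXD1, at one end of the cluster, was listed at 0 in all 9 PC3 lists. The 9 MDA-MB-231 lists had 2.42 to 3.17 kb, or 10.9 to 14.3% of the window by scaled length. HOXD3 and HOXD4 were also listed at 0 in all 9 PC3 lists and had 2.01, 1.75 and 1.62 kb in MDA-MB-231 control lists. HOXD8, in the middle of the cluster, was higher in PC3, at 1.84, 2.10 and 2.33 kb in PC3 control lists, against 0.869, 1.00 and 0.913 kb in MDA-MB-231 control lists (log2 difference 0.86, SE 0.15). With the 50000 peaks of largest area in each list, HOXD8 was lower in PC3 (-1.34). HOXD9 was listed at 0 in all MDA-MB-231 lists and had 0.662 to 1.07 kb in all PC3 lists but day 10 replicate 3, which was at 0. HOXD12, at the limb end, had 1.11, 1.08 and 1.15 kb in PC3 control lists, against 1.75, 1.60 and 1.47 kb in MDA-MB-231 control lists (log2 difference -0.39, SE 0.15, adjusted p = 0.0327). HOXD11 had 0.893 to 1.38 kb over the 9 PC3 lists, against 0.787 to 1.30 kb over the 9 MDA-MB-231 lists. HOXD10 had 0.213 to 0.630 kb over the 9 PC3 lists, and in MDA-MB-231 it had a peak in control replicate 1 (0.239 kb) and day 1 replicate 1 (0.222 kb) only.

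**Figure D3:**
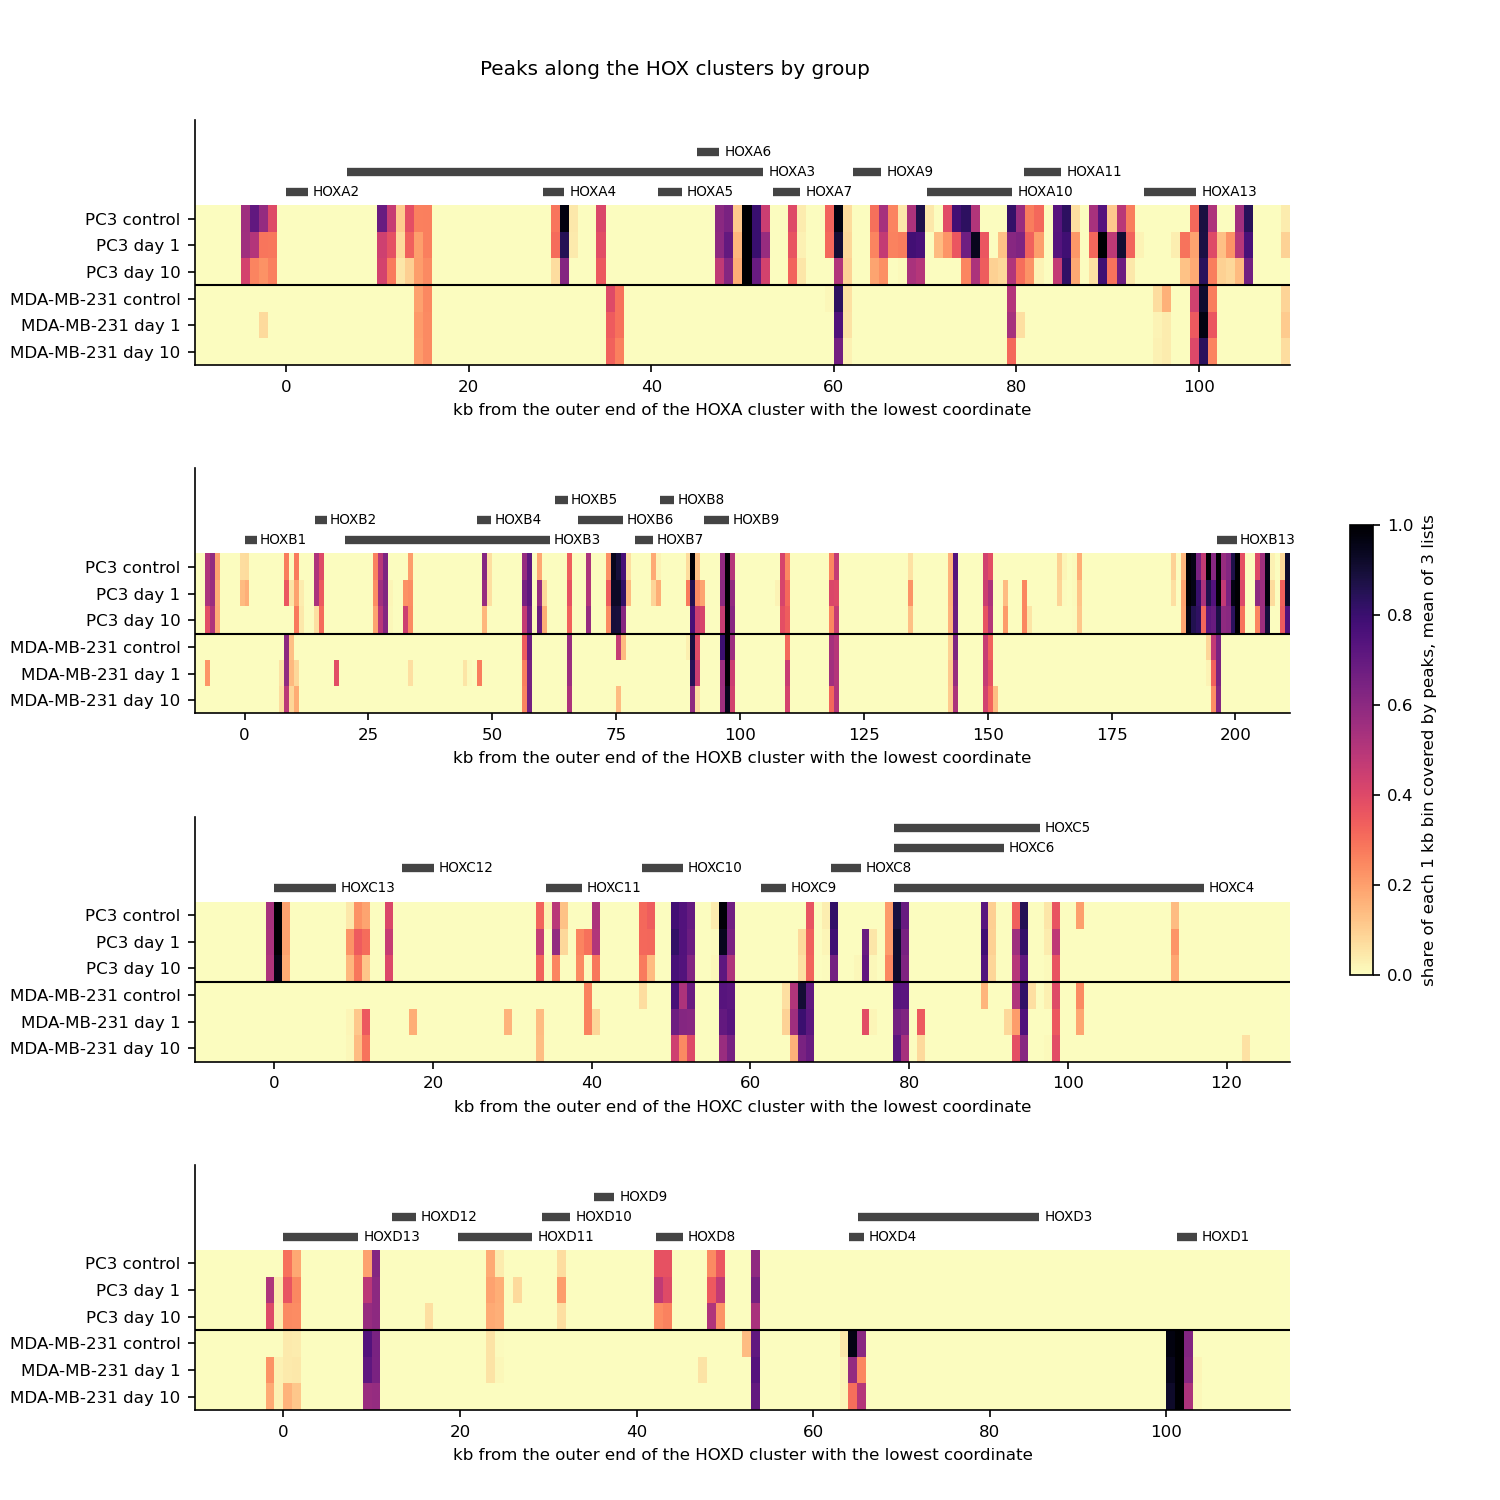
Share of each 1 kb bin inside peaks (colour, from 0 to 1, mean of 3 lists) along each HOX cluster (x axis, distance in kb from the cluster's outer end of lowest coordinate), for PC3 and MDA-MB-231 at control, day 1 and day 10 (rows), with the genes as bars above. PC3 has open stretches along the length of HOXA and at HOXB13, and the end of HOXD that holds HOXD1 is open in MDA-MB-231 and closed in PC3.

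Promoters of 4 genes that the results below turn on are shown here, as RefSeq windows of GRCh38.p14 from 250 bases before to 50 after an annotated start, 5′ to 3′ on the gene's strand. Capitals mark 2 kinds of motif, on either strand: TGATTNA, a sequence that HOX and PBX proteins bind together, and TATAAA, the TATA box. HOXD1 (chr2:176188418-176188717, plus strand) was covered by a peak over all 300 bases in each MDA-MB-231 list and over none in any PC3 list. HOXA11 (chr7:27185183-27185482, minus strand) was the reverse, with all 300 bases covered in each PC3 list and none in any MDA-MB-231 list. HOXA9 (chr7:27165488-27165787, minus strand) and the HOXA10 start at chr7:27174271-27174570 lost coverage in PC3 survivors. The other HOXA10 start, at chr7:27179812-27180111, is shown for contrast and had 248 to 300 bases covered in all 18 lists.
HOXD1: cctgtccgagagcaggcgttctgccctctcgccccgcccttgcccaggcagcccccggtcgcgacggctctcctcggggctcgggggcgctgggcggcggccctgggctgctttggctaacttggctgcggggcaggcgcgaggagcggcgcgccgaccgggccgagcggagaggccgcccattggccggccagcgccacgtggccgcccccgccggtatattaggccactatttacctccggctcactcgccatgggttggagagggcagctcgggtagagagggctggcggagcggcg
HOXA11: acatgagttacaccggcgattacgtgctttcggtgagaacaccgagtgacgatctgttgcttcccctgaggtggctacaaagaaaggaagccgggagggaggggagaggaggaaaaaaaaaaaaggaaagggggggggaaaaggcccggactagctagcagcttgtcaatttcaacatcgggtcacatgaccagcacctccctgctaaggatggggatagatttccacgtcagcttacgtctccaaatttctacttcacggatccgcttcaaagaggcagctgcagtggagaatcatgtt
HOXA9: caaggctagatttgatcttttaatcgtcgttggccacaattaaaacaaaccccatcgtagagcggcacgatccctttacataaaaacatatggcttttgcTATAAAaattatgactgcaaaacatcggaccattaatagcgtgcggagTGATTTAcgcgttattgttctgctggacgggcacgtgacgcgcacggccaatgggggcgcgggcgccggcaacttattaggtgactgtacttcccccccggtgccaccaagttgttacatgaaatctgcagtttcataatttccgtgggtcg
HOXA10, start at 27174271-27174570: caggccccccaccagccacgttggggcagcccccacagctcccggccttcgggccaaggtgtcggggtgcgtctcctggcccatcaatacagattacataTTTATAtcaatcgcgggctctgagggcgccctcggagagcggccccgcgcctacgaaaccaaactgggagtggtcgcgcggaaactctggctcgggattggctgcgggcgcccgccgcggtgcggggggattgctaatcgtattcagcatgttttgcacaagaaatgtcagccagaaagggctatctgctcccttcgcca
HOXA10, start at 27179812-27180111: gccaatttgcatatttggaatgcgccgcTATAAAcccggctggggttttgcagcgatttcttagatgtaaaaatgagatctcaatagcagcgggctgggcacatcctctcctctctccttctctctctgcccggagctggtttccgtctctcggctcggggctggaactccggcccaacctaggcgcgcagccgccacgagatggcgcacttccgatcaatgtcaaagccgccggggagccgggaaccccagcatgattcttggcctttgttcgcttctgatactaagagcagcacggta

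In the HOXA9 window the peaks covered 300, 300 and 300 bases in PC3 control lists, 216, 300 and 215 bases at day 1, and 216, 215 and 0 bases at day 10. At the HOXA10 start printed above with coordinates 27174271-27174570 they covered 300, 300 and 300 bases in control, 0, 300 and 284 bases at day 1, and 0, 0 and 0 bases at day 10. This start lies in the widest region that was present in every PC3 list and no MDA-MB-231 list, chr7:27172805-27176728 (3924 bp), so at day 10 the region was kept in part while the 300 bases at the start were no longer in a peak. The HOXA4 promoter was covered over 185 to 300 bases in the PC3 lists. A window shared by HOXC4 and HOXC5, and a HOXA3 start at chr7:27150901-27151200, were covered whole in the 9 PC3 lists and not at all in the MDA-MB-231 lists.

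RefSeq gave 26 promoter windows for 20 of the 38 genes, of 34943 in the table. TGATTNA was found in 5 of the 26 HOX windows, against 9.75% of all windows, and TATAAA in 5 of the 26, against 11.6%. The AP-1 motif TGANTCA was in 0 of the 26, against 7.72% of all windows. The HOX windows held a median of 22.5 CG pairs, against 14 over all windows, at much the same GC content (58.0%, against 58.7%). A match is a run of letters and not a shown binding site. HOXA9 held both printed motifs.

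Each cluster also carries microRNAs, which repress the HOX messages among others. The miRNAs shown are 1 from each cluster, one of them open in a single line at HOXA and one at HOXD, with the seed, bases 2 to 8, in capitals. They were picked after their values were seen. miR-196b from HOXA and miR-196a from HOXC share a seed and pair with HOX transcripts such as that of HOXB8.
hsa-miR-196b-5p: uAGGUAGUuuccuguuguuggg
hsa-miR-196a-5p: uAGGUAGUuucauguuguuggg
hsa-miR-7704: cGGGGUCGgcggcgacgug
hsa-miR-10a-5p: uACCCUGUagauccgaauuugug

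MIR196B (chr7:27169480-27169563) had 1599, 1130 and 1456 bp under peaks within 1 kb of its hairpin in PC3 control lists, 1506, 1580 and 1217 bp at day 1, and 1085, 857 and 1019 bp at day 10, and was listed at 0 in all MDA-MB-231 lists. These lengths are unscaled. The day 10 lists lay below all control lists. MIR7704, beside HOXD1, had all 2059 bp covered in each MDA-MB-231 list and was listed at 0 in all PC3 lists. MIR196A2 (chr12:53991738-53991847), in HOXC, was open in both lines, with 773, 785 and 810 bp in PC3 control lists, against 640, 802 and 816 bp in MDA-MB-231 control lists. At day 10 it had 630, 719 and 799 bp in PC3 lists and 281, 284 and 729 bp in MDA-MB-231 lists. Both overlap the control lists of their line. MIR615, also in HOXC, had 603, 798 and 789 bp in PC3 control lists, against 719, 786 and 786 bp in MDA-MB-231 control lists. MIR3185, in HOXB, had 1797, 1474 and 1772 bp in PC3 control lists, against 651, 1410 and 1485 bp in MDA-MB-231 control lists, which overlap. The hairpins of MIR10A, MIR10B and MIR196A1 had no peak within 1 kb in any list.

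Of 6 long noncoding RNA genes of the clusters, 5 had more covered length in PC3 control lists than in MDA-MB-231 control lists, and HOXC-AS1 was listed at 0 in all 18 lists. HOTAIRM1, at the head end of HOXA, had 3.06, 1.64 and 2.51 kb scaled covered length within 1 kb of the gene in PC3 control lists, and in MDA-MB-231 it had a peak only in day 1 replicate 3, at 0.211 kb. HOXA11-AS had 2.75, 2.83 and 3.71 kb in PC3 control lists and was listed at 0 in all MDA-MB-231 lists. HOTAIR, which lies in HOXC, had 0.999, 0.775 and 1.38 kb in PC3 control lists and was listed at 0 in the 3 MDA-MB-231 control lists. HOTTIP, at the tail end of HOXA, had 3.09, 3.21 and 3.72 kb in PC3 control lists, against 1.51, 1.96 and 1.81 kb in MDA-MB-231 control lists. HOXB-AS3 had 4.44, 3.76 and 3.91 kb in PC3 control lists, against 1.05, 1.14 and 1.62 kb in MDA-MB-231 control lists. These genes overlap protein-coding HOX windows, so their values are not separate evidence.

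Merged over all lists, the clusters held 128 peak regions: 37 in HOXA, 46 in HOXB, 30 in HOXC and 15 in HOXD. Of these, 28 (21.9%) were in every PC3 list and no MDA-MB-231 list, against 6.14% of all regions of the genome. They comprised 14 regions of HOXA, 10 of HOXB, 3 of HOXC and 1 of HOXD. Another 3 (2.34%) were in every MDA-MB-231 list and no PC3 list, against 2.59% of all regions. They were chr7:27135880-27136720 in HOXA, and chr2:176151435-176153109 at HOXD4 and chr2:176187496-176190201 at HOXD1. In all 18 lists were 21 regions (16.4%), against 19.8% of all regions. With the 50000 peaks of largest area in each list, 11 of 67 cluster regions (16.4%) were in every PC3 list and no MDA-MB-231 list, against 5.89% of all regions.

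After cisplatin, the question is how these loci differed between survivors and untreated cells of the same line. Both times share the control lists, so their values stand side by side and are not independent. In PC3 at day 1, 1 HOX gene rose and 1 fell of 37, where 6.02% of all genes rose and 7.24% fell, so the HOX share was no larger than that of all genes. Over all genes, 1013 higher and 1218 lower became 2436 and 32 without scaling and 1473 and 404 with median-of-ratios scaling, and the HOX genes were then 1 higher and 0 lower under both. HOXA3 fell to 6.99, 9.91 and 8.04 kb at day 1, against 11.9, 9.70 and 12.2 kb in control (log2 difference -0.43, SE 0.12, adjusted p = 0.0312). The groups overlap, and the call was lost without PC3 control replicate 1 or 3 or PC3 day 1 replicate 1 or 3. HOXD13, which shapes the digits, rose to 1.44, 2.40 and 2.09 kb, against 1.36, 1.35 and 1.47 kb (log2 difference 0.37, SE 0.12, adjusted p = 0.0490), with overlapping groups. This call was lost without any 1 of the control lists or day 1 replicate 2 or 3, and the difference was 0.25 without day 1 replicate 2. The count of calls ran from 0 to 4 as 1 list at a time was left out: 0 without PC3 control replicate 1, PC3 control replicate 3 or PC3 day 1 replicate 3, 1 without PC3 control replicate 2 and 4 without PC3 day 1 replicate 2.

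The PC3 day 1 lists differed widely among themselves. In the HOXA cluster, day 1 replicate 2 had 29.1 kb, within the control range, and replicates 1 and 3 had 18.4 and 20.9 kb, below it. At HOXA9 day 1 replicate 2 had 7.84 kb, against 4.38 and 4.98 kb in the other replicates. The median peak width of the whole list moved with this, at 346, 541 and 455 bp in day 1 replicates 1, 2 and 3, against 435, 455 and 429 bp in control. Its part in the HOXA values was not tested.

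At day 10, PC3 survivors had a less open HOXA cluster than untreated PC3 cells. All 10 HOXA genes fell. Over the 4 clusters 14 of 37 HOX genes fell and 1 rose, where 33.1% of all genes fell and 11.8% rose. The HOX share that fell was thus near that of all genes, and 10 of the 14 falls were in HOXA. The median log2 difference was -0.72 over HOXA, -0.31 over all tested HOX genes and -0.16 over all genes. The other genes that fell were HOXB1, HOXB2, HOXC9 and HOXC10, and none was in HOXD. The split of all genes turned with the scaling: 1981 higher and 5566 lower as given, 2819 and 1188 without scaling, and 3424 and 2517 with median-of-ratios scaling. The HOX genes were 1 higher and 6 lower without scaling, and 2 higher and 9 lower with median-of-ratios scaling. Without scaling to equal totals all genes had a median of 0.05 in place of -0.16, and all 10 HOXA differences stayed below 0, with 5 of them called.

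**Figure D4:**
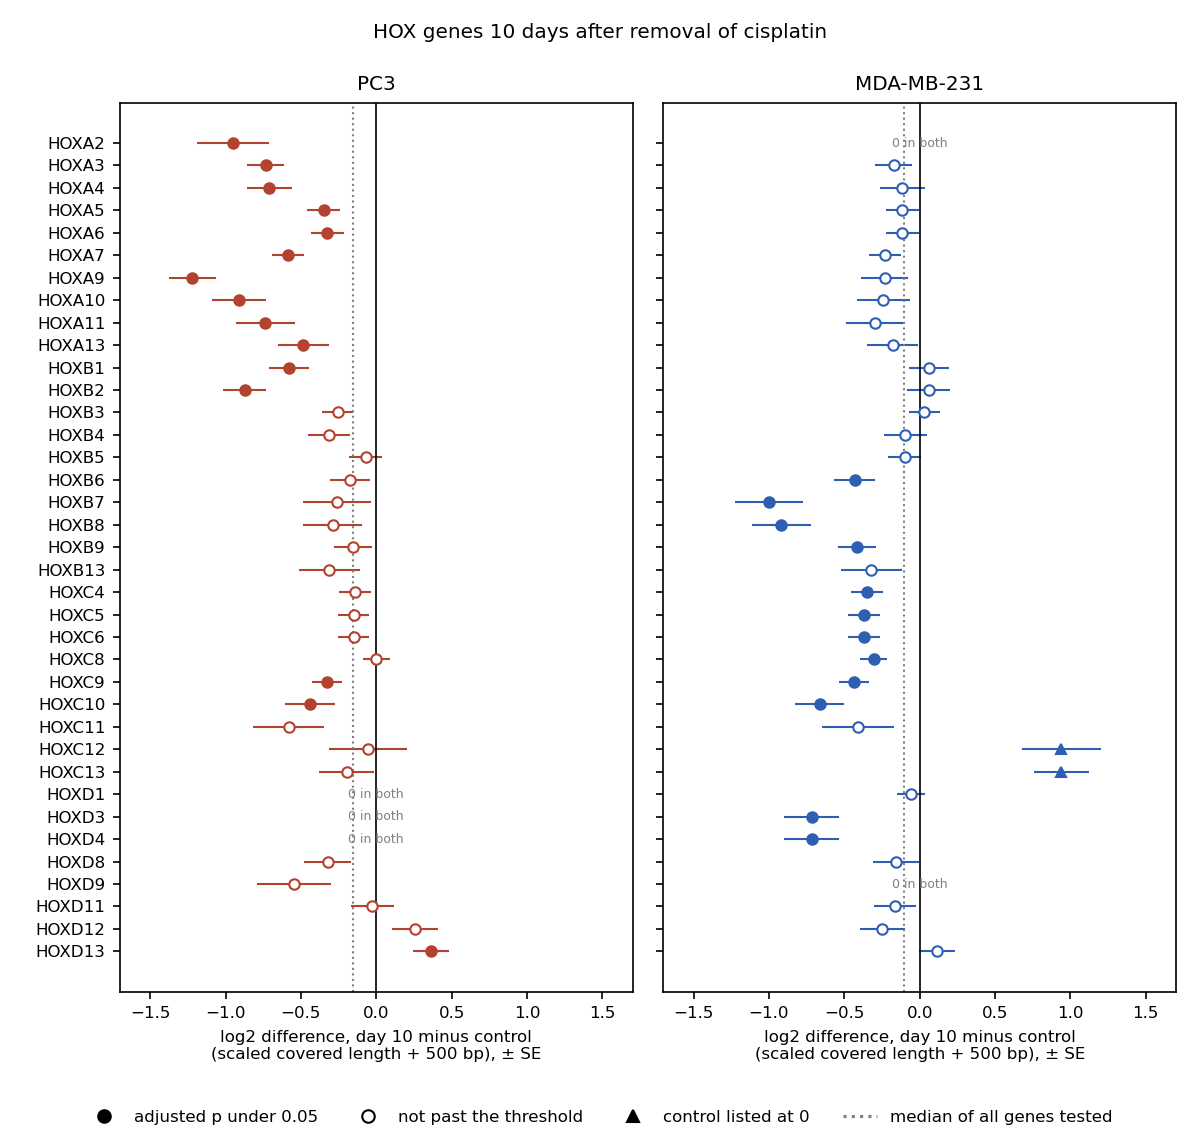
Log2 difference in covered length between day 10 survivors and control (x axis) for each tested HOX gene (rows), in PC3 and MDA-MB-231, with bars of 1 SE, filled symbols for adjusted p under 0.05, triangles where control is listed at 0 and a dotted line at the median of all genes tested. All 10 HOXA genes of PC3 lie left of 0, from -0.33 to -1.22.

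HOXA9 had the largest fall. It had 7.73, 7.06 and 7.51 kb in PC3 control lists, 4.38, 7.84 and 4.98 kb at day 1, and 3.41, 2.91 and 2.44 kb at day 10. Each day 10 list lay below every control list and every day 1 list. The log2 difference was -1.22 against control (SE 0.16, adjusted p = 2.6e-05) and -0.84 against day 1 (SE 0.16, adjusted p = 0.00367). HOXA10 had 11.4, 10.1 and 12.4 kb in control, 6.88, 12.7 and 8.62 kb at day 1, and 6.55, 6.12 and 4.76 kb at day 10. It fell by 0.91 on the log2 scale at day 10 against control (SE 0.18, adjusted p = 0.00075), and by 0.62 against day 1 (SE 0.18, adjusted p = 0.0410). The fall against day 1 was lost without PC3 day 1 replicate 2 or 3 or PC3 day 10 replicate 2 or 3.

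HOXA11 had 8.59, 8.32 and 9.71 kb in control, 5.77, 11.2 and 7.63 kb at day 1, and 5.10, 5.22 and 5.04 kb at day 10 (log2 difference -0.74 at day 10 against control, SE 0.19, adjusted p = 0.00577). The day 10 lists were close together and below all control and day 1 lists, although the promoter printed above stayed under a peak in all of them. HOXA2 had 4.37, 2.86 and 3.67 kb in control, 1.68, 3.31 and 1.44 kb at day 1, and 1.63, 1.01 and 2.42 kb at day 10 (log2 difference -0.95 at day 10, SE 0.24, adjusted p = 0.00453). HOXA3 fell to 6.63, 5.59 and 7.58 kb at day 10, against 11.9, 9.70 and 12.2 kb in control (log2 difference -0.73, SE 0.12, adjusted p = 0.000236). For both genes the day 10 and control lists did not overlap.

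The smallest differences in HOXA were at HOXA5 and HOXA6. The HOXA3 window (65574 bp) encloses the windows of HOXA4, HOXA5 and HOXA6, so the HOXA3 value is not one of the head end alone. HOXA5 and HOXA6, genes of the trunk and, for HOXA5, of lung development, differed by -0.35 and -0.33 on the log2 scale (adjusted p = 0.0163 and 0.0223). Both calls were lost without PC3 control replicate 1, PC3 control replicate 3 or PC3 day 10 replicate 2, and that of HOXA6 also without PC3 day 10 replicate 1. HOXA4 (-0.71) and HOXA7 (-0.59) lay between these and HOXA9. HOXA13 fell by 0.48, but this was -0.39 (adjusted p = 0.118) without PC3 control replicate 3 and -0.32 (adjusted p = 0.151) without PC3 day 10 replicate 2. Leaving out 1 list at a time left 7 to 10 of the 10 HOXA genes called, with 7 without PC3 control replicate 3 or PC3 day 10 replicate 2 and 8 without PC3 control replicate 1. All 10 differences stayed below 0 in each case.

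Taken whole, the HOXA cluster had 17.7, 13.6 and 16.1 kb in PC3 day 10 lists and 3.65, 4.27 and 4.07 kb in MDA-MB-231 day 10 lists, to be set beside the control values above. The difference of day 10 from control was -0.80 in PC3 and -0.26 in MDA-MB-231, and -0.53 over both lines (two-sided exact permutation p = 0.01, adjusted p = 0.0171 over 12 tests, 400 relabellings, smallest p 0.005). Within 1 line, 3 lists against 3 cannot give an exact permutation p below 0.1. With 50 kb instead of 10 kb on each side of the cluster the difference was -0.31 (adjusted exact permutation p = 0.135). Unscaled, peaks covered 14.7, 13.1 and 15.8% of the HOXA cluster in PC3 at day 10, against 22.3, 19.5 and 21.9% in control, again with no overlap.

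In HOXA of PC3 the peaks were narrower at day 10 than in control, and scaled to equal totals they were also fewer. The cluster held 30, 29 and 26 peaks in PC3 control lists, 37, 31 and 29 at day 1, and 37, 25 and 26 at day 10, which overlap. Scaled to the mean number of peaks per list, it held 31.6, 30.8 and 29.5 peaks in control, 27.1, 32.6 and 26.0 at day 1, and 27.0, 20.0 and 23.5 at day 10, with every day 10 list below every control list. Their mean width was 889, 807 and 1010 bp in control, 545, 1091 and 832 bp at day 1, and 476, 630 and 726 bp at day 10. On average the peaks of each day 10 list were narrower than those of every control list. Median widths of the whole lists at day 10 were 320, 421 and 480 bp, against 435, 455 and 429 bp in control, and their part in the HOXA widths was not tested.

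**Figure D5:**
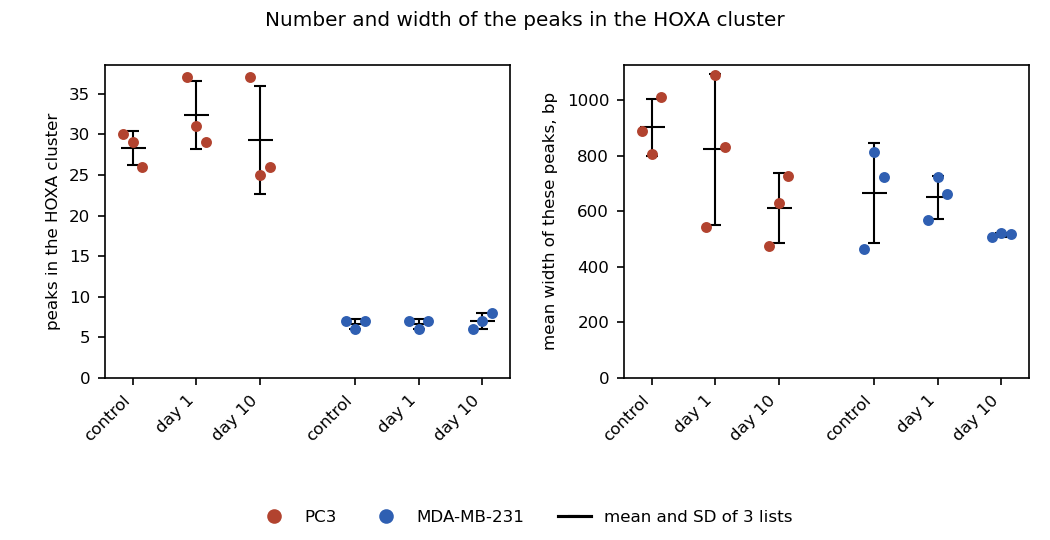
Number of peaks (left) and their mean width in bp (right) in the HOXA cluster with 10 kb on each side, 1 point per list with lines at the mean and SD of 3 lists, for PC3 and MDA-MB-231 at control, day 1 and day 10. Unscaled, the PC3 day 10 lists have 25 to 37 peaks and the control lists 26 to 30, and scaled to equal totals 20.0 to 27.0 and 29.5 to 31.6. The day 10 lists have mean widths of 476 to 726 bp, below the control widths of 807 to 1010 bp.

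In HOXB of PC3, 2 of 10 genes were called lower at day 10, against 33.1% of all genes, and both were at the head end. HOXB2, a hindbrain gene, had 1.57, 1.42 and 1.73 kb in control, 1.37, 1.34 and 1.30 kb at day 1, and 0.638, 0.559 and 0.694 kb at day 10. The difference was -0.87 against control (SE 0.14, adjusted p = 0.000211) and -0.70 against day 1 (SE 0.14, adjusted p = 0.00679), and day 10 lists were below all others. HOXB1, which specifies facial motor neurons, had 1.91, 2.45 and 2.01 kb in control, 1.96, 1.81 and 2.06 kb at day 1, and 1.22, 1.17 and 1.37 kb at day 10. It fell by 0.58 against control (SE 0.13, adjusted p = 0.00246) and by 0.48 against day 1 (SE 0.13, adjusted p = 0.0357). HOXB1 and HOXB2 share part of their windows, and the region chr17:48536957-48537680, lost at day 10, lies in both. HOXA9, HOXA10, HOXB1 and HOXB2 were the 4 genes lower at day 10 than at day 1, where 5.50% of all genes were lower and 2.19% higher. No HOX gene was higher. Over all genes, 369 higher and 925 lower became 650 and 508 with median-of-ratios scaling, and 2 HOX genes were then lower. The HOXB1 call against day 1 was lost without any 1 of the day 1 lists or day 10 replicate 1 or 2. Leaving out 1 list at a time gave 2 to 6 calls in this comparison, with 2 without PC3 day 1 replicate 2, PC3 day 1 replicate 3 or PC3 day 10 replicate 2.

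HOXB13 was not called in PC3, with 12.2, 11.5 and 13.8 kb in control, 10.8, 11.1 and 10.9 kb at day 1, and 10.5, 8.91 and 10.5 kb at day 10, although its lists at both times lay below those of control. In HOXC, HOXC9 (-0.33, adjusted p = 0.0123) and HOXC10 (-0.44, adjusted p = 0.0377) fell in PC3 at day 10, although with 2 kb on each side HOXC9 was at 0.15. Both calls were lost without PC3 control replicate 3 or PC3 day 10 replicate 2, and that of HOXC10 also without PC3 control replicate 1 or PC3 day 10 replicate 1. HOXD13 was the one gene that rose, with 1.88, 1.86 and 2.06 kb at day 10, against 1.36, 1.35 and 1.47 kb in control (log2 difference 0.36, SE 0.12, adjusted p = 0.0201). Its lists did not overlap, and the call was lost without PC3 control replicate 1 or 2 or PC3 day 10 replicate 3.

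Few single regions were gained or lost whole. Among the 112 cluster regions of PC3, 8 were present in all 3 day 10 lists and no control list, where 10.4% of all regions were gained so, and 3 were lost, where 1.33% were. This balance depends on the peaks counted. With an overlap of at least 50% of the region, 7 were gained (10.2% of all regions) and 7 lost (1.94%). With the 50000 peaks of largest area in each list, 0 of 61 were gained (5.74% of all regions) and 7 lost (5.77%). One lost region, chr7:27167093-27167425, was 1556 bp from HOXA9, and another, chr17:48536957-48537680, was 4975 bp from HOXB2 and was also lost against day 1. The third, chr12:54040210-54040418, was in HOXC4 and was already lost at day 1. At day 1, 4 regions were gained (4.28% of all regions) and 1 lost (0.407%). All 4 were also gained at day 10. One of them, chr2:176085965-176086533, lay 954 bp from HOXD13, and another, chr12:54012795-54013910, 26 bp from HOXC8. Against day 1, day 10 had 0 gained (2.55% of all regions) and 1 lost (1.07%).

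In MDA-MB-231 at day 1, 3 HOX genes rose and 4 fell, where 10.9% of all genes rose and 15.5% fell. Over all genes, 1825 higher and 2609 lower became 1897 and 318 without scaling and 2230 and 955 with median-of-ratios scaling, and the HOX genes were then 3 higher and 2 lower, and 4 higher and 3 lower. The largest rises were at the tail end of HOXC. In the 3 control lists HOXC12 was listed at 0. It had 0.553, 0.386 and 1.43 kb at day 1 and 0.298, 0.403 and 0.724 kb at day 10. HOXC13 was also listed at 0 in control and had 0.301, 0.386 and 0.978 kb at day 1 and the same lengths as HOXC12 at day 10. Every treated list of both genes lay above control (adjusted p = 0.00202 for HOXC12 and 0.000834 for HOXC13 at day 1, and 0.0129 and 0.00121 at day 10). Part of this was 1 region of 397 bp, chr12:53950276-53950672, which lay 3732 bp from HOXC13 and was gained at both times. The HOXC12 call at day 10 was lost without MDA-MB-231 day 10 replicate 3 (adjusted p = 0.0670).

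HOXD3 and HOXD4 fell in MDA-MB-231. Their shared value was 2.01, 1.75 and 1.62 kb in control, 1.28, 0.427 and 0.822 kb at day 1, and 1.20, 0.631 and 0.904 kb at day 10. No treated list reached the control range. The log2 difference was -0.82 at day 1 (SE 0.18, adjusted p = 0.00400) and -0.72 at day 10 (SE 0.18, adjusted p = 0.00800), and it was called under every alternative tried. The HOXD4 promoter was under a peak over 161, 163 and 155 bases in control, 165, 0 and 0 bases at day 1, and 163, 0 and 0 bases at day 10. HOXD1 was not called at either time, with 3.17, 2.88 and 2.58 kb in control, 2.73, 2.50 and 2.42 kb at day 1, and 2.91, 2.86 and 2.45 kb at day 10.

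In the middle of HOXB, a stretch of trunk genes was less open in MDA-MB-231 survivors. HOXB8 had 1.98, 2.64 and 3.33 kb in control, 1.40, 1.80 and 1.60 kb at day 1, and 0.996, 0.778 and 1.82 kb at day 10. The log2 difference was -0.57 at day 1 (SE 0.20, adjusted p = 0.0418) and -0.92 at day 10 (SE 0.20, adjusted p = 0.00235), and no treated list overlapped control. The day 1 call was lost without MDA-MB-231 control replicate 2 or 3 or any 1 of the day 1 lists. HOXB7 had 1.55, 2.02 and 2.58 kb in control, 1.10, 1.44 and 1.29 kb at day 1, and 0.652, 0.361 and 1.50 kb at day 10 (log2 difference -1.0 at day 10, SE 0.23, adjusted p = 0.00360).

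HOXB6 had 1.61, 1.63 and 2.07 kb in control, 0.827, 1.12 and 0.997 kb at day 1, and 0.882, 1.23 and 1.47 kb at day 10. It differed by -0.62 at day 1 (SE 0.13, adjusted p = 0.00348) and -0.43 at day 10 (SE 0.13, adjusted p = 0.0246), and with the 50000 peaks of largest area in each list the differences were 0.03 and 0.11. The day 10 call was lost without MDA-MB-231 control replicate 3 or MDA-MB-231 day 10 replicate 1. A region in HOXB6, chr17:48603974-48604642, was in all control lists and no day 1 list. HOXB9 fell at day 10 (-0.42, SE 0.12, adjusted p = 0.0202), a call lost without MDA-MB-231 control replicate 2 or 3 or day 10 replicate 2. HOXB3 rose at day 1 to 2.18, 2.20 and 2.57 kb, against 1.65, 1.89 and 1.68 kb in control (0.33, SE 0.10, adjusted p = 0.0270), and was at -0.01 with the 50000 peaks of largest area in each list. This call was lost without MDA-MB-231 control replicate 1 or 3 or MDA-MB-231 day 1 replicate 3.

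At day 10, 12 HOX genes fell and 2 rose in MDA-MB-231, where 16.7% of all genes fell and 11.0% rose. The median log2 difference was -0.23 over the HOX genes and -0.11 over all genes. Over all genes, 1849 higher and 2814 lower became 1458 and 1193 without scaling and 2172 and 963 with median-of-ratios scaling, and the HOX genes were then 2 higher and 6 lower under both. The falls were 4 genes of HOXB (HOXB6 to HOXB9), 6 of HOXC (HOXC4 to HOXC10) and 2 of HOXD. None was in HOXA, where the covered length was low throughout. The count fell to 9 without MDA-MB-231 control replicate 3 or MDA-MB-231 day 10 replicate 2. With the 50000 peaks of largest area in each list, 0 HOX genes rose and 2 fell of 35 tested. Of all 15950 genes tested so, 751 rose and 551 fell.

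HOXC10, a gene of the lower trunk and hindlimb, had 3.82, 4.29 and 4.21 kb in MDA-MB-231 control lists, 3.94, 3.81 and 3.23 kb at day 1, and 1.63, 2.43 and 3.43 kb at day 10. The difference was -0.66 at day 10 (SE 0.17, adjusted p = 0.00685). HOXC9 had 4.59, 5.50 and 5.17 kb in control, 4.53, 4.97 and 4.63 kb at day 1, and 3.38, 3.43 and 4.08 kb at day 10 (-0.44, SE 0.10, adjusted p = 0.00342). For both genes the day 10 lists lay below all control lists. HOXC4, HOXC5, HOXC6 and HOXC8 fell by 0.35, 0.37, 0.37 and 0.31 (adjusted p = 0.0221, 0.0147, 0.0147 and 0.0182), and each of these calls was lost without MDA-MB-231 day 10 replicate 2. Leaving out MDA-MB-231 control replicate 3 ended the calls of HOXC4, HOXC5 and HOXC6, leaving out MDA-MB-231 control replicate 2 that of HOXC8, and leaving out MDA-MB-231 day 10 replicate 1 that of HOXC4.

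Between the times, HOXC8 alone differed in MDA-MB-231, with 3.35, 2.91 and 3.17 kb at day 10, against 4.06, 3.83 and 4.57 kb at day 1 (-0.35, SE 0.09, adjusted p = 0.0291). This is 0 genes higher and 1 lower, where 2.13% of all genes were higher and 3.24% lower. Over all genes, 359 higher and 545 lower became 151 and 818 without scaling, and 2 HOX genes were then lower. The count was 0 without MDA-MB-231 day 1 replicate 1, MDA-MB-231 day 1 replicate 3 or MDA-MB-231 day 10 replicate 2, 2 without day 1 replicate 2 and 3 without day 10 replicate 3. Those 3 genes did not include HOXC8, whose call was also lost there (adjusted p = 0.0713). With the replicate number as a block, which pairs the lists here, 2 genes were lower. Of the 61 cluster regions of MDA-MB-231, 2 were gained at day 1 (7.86% of all regions) and 1 lost (0.684%), 1 was gained at day 10 (10.0%) and 1 lost (0.909%), and between the times 0 were gained (2.31%) and 1 lost (2.49%).

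As whole clusters, HOXB and HOXC were less open at day 10 than in control in both lines. HOXB had 25.3, 23.2 and 27.4 kb at day 10, against 30.7, 30.1 and 32.5 kb in control of PC3, and 8.51, 9.41 and 10.5 kb at day 10, against 10.6, 12.0 and 12.3 kb in control of MDA-MB-231. With this scaling no list overlapped within a line. The difference was -0.30 (exact permutation p = 0.005, the smallest it can give, adjusted p = 0.01). HOXC had 13.3, 11.0 and 12.8 kb at day 10, against 15.3, 15.0 and 16.1 kb in control of PC3, and 6.79, 7.28 and 9.46 kb at day 10, against 9.86, 10.8 and 10.9 kb in control of MDA-MB-231. The difference was -0.38 (exact permutation p = 0.005, adjusted p = 0.01). Without scaling, these were -0.18 for HOXB (adjusted exact permutation p = 0.285) and -0.26 for HOXC (adjusted exact permutation p = 0.25). Unscaled, the day 10 and control lists overlapped for both clusters in both lines. With the 50000 peaks of largest area in each list, HOXB was at -0.19 (adjusted exact permutation p = 0.167). Gene by gene, the median of all genes at day 10 was -0.16 in PC3 and -0.11 in MDA-MB-231.

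At day 1 the cluster differences were smaller. HOXB differed by -0.13 (exact permutation p = 0.02, adjusted p = 0.03), a call that turned to 0.09 without scaling and was lost without MDA-MB-231 control replicate 2 or 3 or MDA-MB-231 day 1 replicate 1. HOXA differed by -0.22 (adjusted exact permutation p = 0.127), and passed without PC3 day 1 replicate 2 (-0.32, adjusted exact permutation p = 0.03) or without MDA-MB-231 control replicate 1 (-0.27, adjusted exact permutation p = 0.04). HOXC differed by -0.07 (adjusted exact permutation p = 0.288). HOXD differed by -0.02 at day 1 (adjusted exact permutation p = 0.865) and -0.09 at day 10 (adjusted exact permutation p = 0.36). Within HOXD the lines had opposite signs at day 1, at 0.27 in PC3 and -0.31 in MDA-MB-231, and this contrast was not tested.

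Whether a gene changed by a different amount in the lines was tested directly, as the log2 change in PC3 minus that in MDA-MB-231. At day 10, 5 HOX genes differed, all with the more negative change in PC3, where 10.6% of all genes differed so and 5.82% the other way. They were HOXA3, HOXA9, HOXB1, HOXB2 and HOXC13. HOXB1 and HOXB2 had the same covered length in every MDA-MB-231 control and day 10 list, so they are not separate evidence. Over all genes, 978 with the less negative and 1787 with the more negative change became 1342 and 560 without scaling, where 1 HOX gene differed, and 1339 and 1349 with median-of-ratios scaling, where 4 did. HOXB2 fell in PC3, whereas in MDA-MB-231 it had 0.617, 0.840 and 1.18 kb at day 10, against 0.892, 0.774 and 0.751 kb in control. For HOXA9 the difference of changes was -0.99 (SE 0.22, adjusted p = 0.00581). Its call was lost without scaling, where the 1 HOX gene was HOXB2. The count was 3 without MDA-MB-231 control replicate 3. At day 1, HOXC13 alone differed (1 of 37), where 3.44% of all genes had the more negative change in PC3 and 1.86% the other way. The other HOXA genes that fell in PC3 were not shown to differ from MDA-MB-231.

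HOX proteins act with TALE homeodomain partners, which raise their DNA affinity. Of 8 tested PBX, MEIS and PKNOX genes, 1 rose and 2 fell in PC3 at day 10 (median -0.10, against -0.16 over all genes), where 11.8% of all genes rose and 33.1% fell. In MDA-MB-231 at day 10, 1 rose and 2 fell (median -0.06, against -0.11 over all genes), where 11.0% rose and 16.7% fell. In both lines the one that rose was PKNOX2. It averaged 12.2 ± 2.15 kb at day 10, against 6.49 ± 0.605 kb in control of PC3 (SD, n = 3 lists each; limma log2 difference 0.85, SE 0.10), and 8.95 ± 0.695 kb at day 10, against 3.82 ± 0.0255 kb in control of MDA-MB-231 (1.13, SE 0.10). In PC3 the genes that fell were PKNOX1 (-0.49) and PBX3 (-0.42), and in MDA-MB-231 MEIS3 (-0.53) and PBX4 (-0.30).

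Polycomb and Trithorax genes, with the retinoic acid receptors and CTCF, shape HOX domains. Of 20 tested, 1 rose and 9 fell in PC3 at day 10 (median -0.26, against -0.16 over all genes), where 11.8% of all genes rose and 33.1% fell. In MDA-MB-231 1 rose and 6 fell (median -0.20, against -0.11 over all genes), where 11.0% of all genes rose and 16.7% fell. BMI1, a Polycomb subunit needed for HOX silencing in mice, averaged 0.737 ± 0.0922 kb at day 10, against 4.04 ± 0.444 kb in control of PC3 (SD, n = 3 lists each; limma log2 difference -1.87, SE 0.14, adjusted p = 7.96e-08). SUZ12, a subunit of the complex that writes the Polycomb mark, differed by -0.68, and KDM6A, which erases that mark, by -0.78. RARB, a retinoic acid receptor gene, rose in both lines at day 10, by 1.47 in PC3 and 0.61 in MDA-MB-231. In MDA-MB-231, MEN1, which directs a Trithorax enzyme to HOX loci, fell by 0.79 and CTCF by 0.51.

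The genes beside the clusters give a local background. Of 21 flanking genes, 1 rose and 10 fell in PC3 at day 10 (median -0.20, against -0.16 over all genes), where 11.8% of all genes rose and 33.1% fell. In MDA-MB-231 0 rose and 2 fell (median -0.13, against -0.11 over all genes), where 11.0% rose and 16.7% fell. Those that fell in PC3 included TAX1BP1 (-0.57) and HIBADH (-0.54) on the HOXA side and ATF2 (-0.53) and ATP5MC3 (-0.33) on the HOXD side. EVX1 and EVX2, homeobox genes at the tail ends of HOXA and HOXD, did not pass the test in PC3 at day 10, with a median log2 difference of 0.16 over the pair. Both rose in MDA-MB-231 at day 10, with EVX1 at 1.50 ± 0.279 kb, against 0.776 ± 0.219 kb in control (SD, n = 3 lists each; limma log2 difference 0.65, SE 0.16). Of 4 tested ParaHox and caudal genes, 0 passed at day 10 in either line. In untreated cells the flanking genes were 2 higher and 5 lower in PC3 than in MDA-MB-231 of 21, with a median of -0.04, where 21.0% of all genes were higher and 44.3% lower, and the HOX genes had a median of 0.98.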

How the data were processed

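ATAC-seq was done on PC3 and MDA-MB-231 cells in 6 groups. Per the submitters' processing notes, the tools were Genrich 0.6.2, Bowtie2 2.3.5.1, FastQC 0.12.1, SAMtools 1.6, Picard and R 4.4.1, with GRCh38 (hg38) as build. The authors deposited 18 narrowPeak lists with no header line, 1 for each biological replicate. The thresholds and the way the 3 experimental replicates were joined are not given in the sources used here. The deposited column 7 is a score, read as peak area, and ranked peaks within a list only. The deposited positions of the peaks carried all other values. Lists were matched to groups by line, state and replicate number. Covered length follows how many peaks were called, and so depth, which is unknown.

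Peaks were merged within each list. Covered bases in each gene body and 10 kb on each side (RefSeq GRCh38.p14, 19974 protein-coding genes) were scaled to the mean total covered length. The 16816 genes that reached 500 bp in 3 or more lists were tested. In R 4.3.3, limma 3.58.1 fitted log2(length + 500 bp) over all 6 groups together, with a variance trend and 12 residual degrees of freedom, and p-values were adjusted over all genes (Benjamini-Hochberg, 0.05). Differences are on this log2 scale, which understates the change of low genes. No fold is given against a group at 0. Cluster totals (Python 3.11.15, numpy 2.4.6, pandas 2.3.3, scipy 1.17.1) went into two-sided exact permutation tests that permuted labels within lines or within states. Peaks were merged over all lists into regions, counted as present in a list from an overlap of 1 bp. A region was gained where all 3 lists of the first group and none of the second had it, and lost in the reverse case. Both tests were also run on simulated data, with outcomes not given here. The noise there was drawn independently for each gene or list, whereas neighbouring windows of these data share peaks.

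The HOX genes and the other lists were chosen with earlier results of these data known. By rule, values in every list are given for genes called without overlap, up to 6 in each direction by size, and for the highest and lowest of each cluster, and others by range and count. Of each other list up to 4 called genes by p are named. Genes added to these after their values were seen are HOXA13, HOXB1, HOXB3, HOXC11, HOXB6, HOXB13 in PC3 over time, HOXD1 in MDA-MB-231 over time, HOXD8 and the noncoding RNAs.

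Groups share replicate numbers. Residuals from the group means correlated above 0.1 in every same-numbered pair of PC3 day 10 and day 1 (0.132 to 0.345), MDA-MB-231 day 1 and control (0.193 to 0.389) and MDA-MB-231 day 10 and day 1 (0.197 to 0.419). This is the only ground for a pairing there, since the labels give none. The main fits did not pair the lists, so the SE and adjusted p values given from limma are unpaired. The replicate block was an alternative, run for every comparison within a line. Alternatives were no scaling, median-of-ratios scaling, the 50000 peaks of largest area, a pseudocount of 250 bp, 2 kb on each side, no filter, a replicate block, only the groups compared, and leaving out each list. Some marker genes are not reported here.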

Additional observations from a re-analysis of the deposited data

Results flagged for a closer look

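In 6 cases the change from control differed between the lines by a direct test in limma, as the log2 change in PC3 minus that in MDA-MB-231. At day 1 this was HOXC13 (-1.05, SE 0.26, adjusted p = 0.0248). At day 10 these were HOXC13 (-1.14, SE 0.26, adjusted p = 0.00709), HOXA9 (-0.99, SE 0.22, adjusted p = 0.00581), HOXB2 (-0.93, SE 0.20, adjusted p = 0.00505), HOXB1 (-0.64, SE 0.19, adjusted p = 0.0282) and HOXA3 (-0.56, SE 0.17, adjusted p = 0.0348). The MDA-MB-231 control lists of HOXC13 were all at 0, so the size of its values depends on the pseudocount. HOXA9, HOXB2 and HOXC13 at day 10 stayed past the threshold whichever list was left out. Without scaling, however, HOXB2 was the only HOX gene called at day 10, and the calls of HOXA9 and HOXC13 were lost. HOXA3 and HOXB1 at day 10 and HOXC13 at day 1 did not, with HOXA3 at -0.46 without PC3 day 10 replicate 2 and HOXB1 at -0.49 without MDA-MB-231 day 10 replicate 3. What lies behind these differences was not tested.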

How the results depend on the processing

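The lists hold no reads, so neither depth nor signal strength could be taken into account. The 10 falls of HOXA genes in PC3 at day 10 kept their direction under every alternative that tested them (9 genes were tested with 2 kb on each side), and HOXA3, HOXA9, HOXA10 and HOXB2 kept their call. Of 161 recomputed counts of called HOX genes, 109 stayed within 1.5 times the main count. Of 228 recomputed cluster differences, 212 kept their side of the threshold, and those among them that passed it kept their direction. Differences that did not pass could change sign and still be counted among the 212, as for HOXD at day 1. Where results moved, the cause was not tested.

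Counts of called HOX genes were 2 in PC3 at day 1, 15 in PC3 at day 10, 4 in PC3 between the times, 7, 14 and 1 in MDA-MB-231, and 1 and 5 for the difference between lines. Without scaling these became 1, 7 and 2 in PC3, 8 in MDA-MB-231 at day 10, 2 between its times, and 0 and 1 between lines. With median-of-ratios scaling they were 1 in PC3 at day 1, 2 between its times, 8 in MDA-MB-231 at day 10 and 0 between lines at day 1. With the 50000 peaks of largest area they were 1 and 8 in PC3, 2, 2 and 0 in MDA-MB-231, and 3 between lines at day 1. With 2 kb on each side they were 1 between the PC3 times, 8 and 0 in MDA-MB-231 at day 10 and between its times, and 0 between lines at day 1. A pseudocount of 250 bp gave 1 in PC3 at day 1 and 2 between the MDA-MB-231 times, and no filter gave 1 in PC3 at day 1. With only the groups compared in the fit they were 0 in PC3 at day 1, 1 and 0 between the times in PC3 and MDA-MB-231, and 2 and 9 between lines.

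With the replicate number as a block the counts were 2, 17 and 5 in PC3 and 9, 15 and 2 in MDA-MB-231, and no call was lost. In the other comparisons within a line, not every same-numbered pair correlated above 0.1. The ranges were -0.0444 to 0.0999 (PC3 day 1 and control), 0.0288 to 0.253 (PC3 day 10 and control) and 0.0564 to 0.330 (MDA-MB-231 day 10 and control). Leaving out 1 list at a time gave 0 to 4, 10 to 16 and 2 to 6 calls in PC3, 5 to 7, 9 to 14 and 0 to 3 in MDA-MB-231, and 0 to 4 and 3 to 7 between lines.

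Single genes changed sign in 14 cases. With the 50000 peaks of largest area HOXB3 (-0.0079) and HOXB6 (0.031) did so in MDA-MB-231 at day 1, HOXB6 at day 10 (0.11), and between the lines HOXD8 (-1.34 in control, -0.66 at day 1, -0.95 at day 10) and HOXA9 at day 10 (-0.14). With 2 kb on each side HOXC9 was 0.15 in PC3 at day 10, and between the lines HOXB5 was -0.36, -0.33 and -0.42 in the 3 states, HOXC8 was 1.48 in control and 1.13 at day 1, and HOXA13 was -0.31 at day 10.

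For whole clusters, no scaling gave 0.089 for HOXB at day 1, and -0.18 for HOXB and -0.26 for HOXC at day 10. The 50000 peaks of largest area gave -0.081 and -0.19 for HOXB at day 1 and day 10. HOXA was -0.26 at day 1 with no flank, which passed, and -0.31 at day 10 with 50 kb flanks, which did not, as did not HOXB at day 1 (-0.11). Numbers of peaks gave -0.25 for HOXA (passed) and -0.074 for HOXB (did not pass) at day 1, and 0.028 for HOXD between lines. Leaving out 1 list gave -0.32 to -0.15 for HOXA and -0.16 to -0.11 for HOXB at day 1, and -0.083 to 0.055 for HOXD at day 1.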
